A study of Mus musculus with 4 samples.

Results

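Imprinted genes are those expressed mainly or only from the copy inherited from one parent. The imprinted genes described here were 33 mouse genes taken by name, through every probe set annotated to them, under a rule that uses no measured value. Of these, 30 had at least 1 probe set of their own among the 12393 genes on the arrays, and 21 of the 30 were bright enough to be tested, against 7815 of all genes. Expression was measured in R1 cells, an established line of mouse embryonic stem cells, on 4 Affymetrix arrays. The knockdown group was 2 samples given, by lentivirus, a short hairpin RNA (shRNA) that targets Brg1. Brg1, encoded by Smarca4, is an ATPase that drives SWI/SNF complexes, which move and eject nucleosomes. The control group was 2 samples infected in the same way with an shRNA against GLUT4, the glucose transporter encoded by Slc2a4. Both groups therefore carried a virus and a hairpin, all RNA was taken 67 h after infection, and the labels do not say how many different hairpins were used per target. The cells were infected in duplicate, and the p-values measure only the spread between such samples.

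The parental copies of an imprinted gene are told apart by DNA methylation laid down in egg or sperm at control regions, and this mark is kept after fertilisation by the maintenance methyltransferase DNMT1 and by zinc finger proteins such as ZFP57 with their partner TRIM28. The genes lie in clusters, in which a long noncoding RNA or an insulator bound by CTCF often sets which copy is active. Many paternally expressed genes are known to promote growth before birth and many maternally expressed genes to restrain it, and embryonic stem cells can lose imprints in culture. The arrays measure the summed RNA of both copies, so no value here says which copy was expressed or whether an imprint was kept.

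The arrays had been scaled to a common level before deposit, to a trimmed mean of 200.1 signal units. Smarca4 had signals of 652.1 and 621.5 with the Brg1 shRNA and 1186.6 and 1213.6 with the control shRNA, a log2 difference of -0.89 ± 0.08 (SE, n = 2 per group; limma, adjusted p = 0.000232). Slc2a4, at 11.7 to 23.9 on the 4 arrays, was below the filter. All 8 embryonic stem cell markers on a list that included Pou5f1, Sox2 and Nanog reached the filter, of which 2 (Nanog and Fbxo15) rose and none fell, where 9.33% of all tested genes rose and 5.09% fell. A scaling to the hybridisation spike-ins, which are bacterial and phage transcripts added to each sample, took the median of the log2 differences over all tested genes from 0.035 to 0.327. Directions are given relative to the deposited scale.

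The test took 1 probe set per gene and called a gene at an adjusted p under 0.05 over all 7815 tested genes (limma, two-sided, on log2 of signal plus 20 signal units). Of the 21 imprinted genes tested, 3 rose in the knockdown, 3 fell and 15 did not pass. Igf2, Impact and Ndn rose, while Grb10, Phlda2 and Copg2 fell. Over all tested genes, 14.4% passed, 9.33% higher and 5.09% lower. The genes are few and were chosen with earlier results of these arrays known, so nothing particular to imprinted genes is read from the counts. The median log2 difference of the 21 was -0.06, against 0.035 for all tested genes. The arrays of the groups did not overlap in 14 imprinted genes, 6 of them higher and 8 lower, where 60.2% of all tested genes were so, 34.3% higher and 25.9% lower. The probe sets that stood for Asb4, Dcn, Kcnq1, Nap1l5, Osbpl5, Plagl1, Snrpn, Usp29 and Zim1, 9 genes, were below the filter, with signals of 0.9 to 18.1. Plagl1 and Snrpn had brighter probe sets outside this fit, described further on. Zrsr1 and Ppp1r9a were on no probe set, and the probe set for H19 was also annotated to the microRNA gene Mir675 within it.

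**Figure D1:**
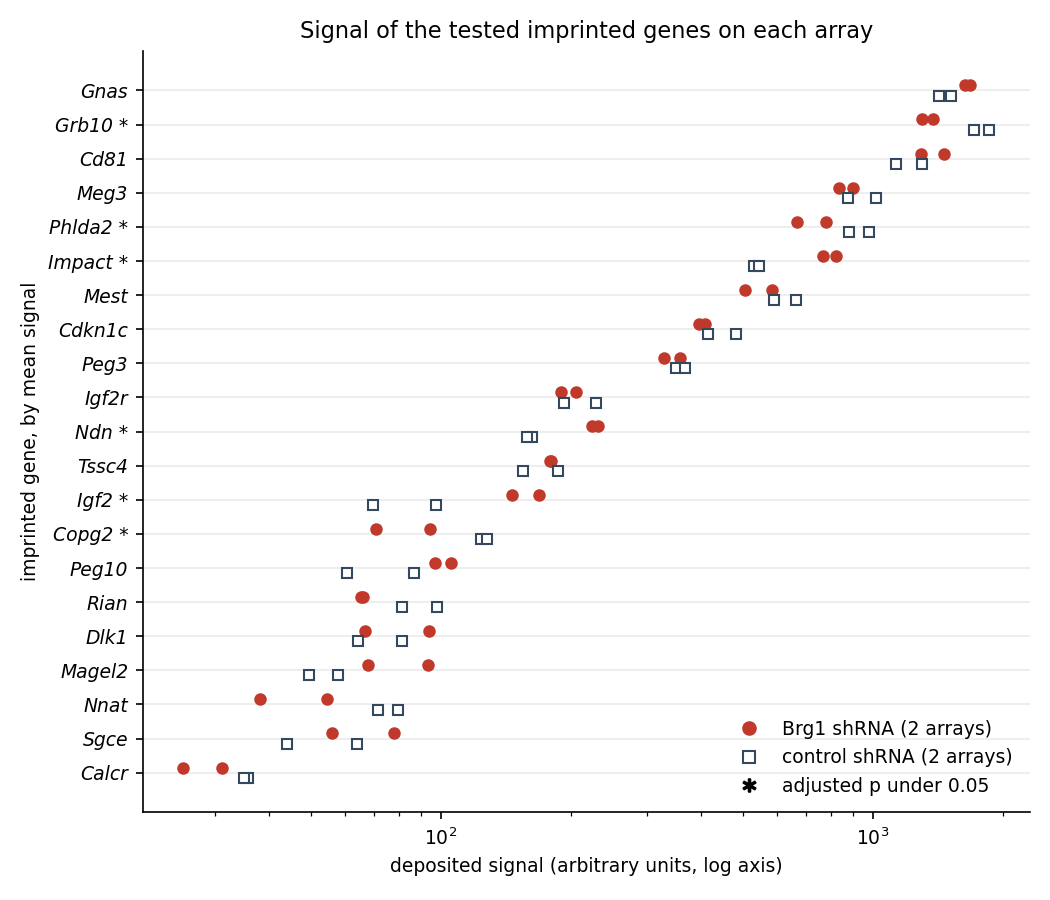
Deposited signal (log axis) of each of the 21 tested imprinted genes on each array, with filled circles for the 2 Brg1 shRNA arrays, open squares for the 2 control shRNA arrays and an asterisk for the 6 genes past the test. Rows are sorted by mean signal for display only, since levels of different probe sets cannot be compared, and in each of the 6 genes the circles lie wholly to one side of the squares.

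Split by the parental copy each gene is known to be expressed from in some or all tissues, the 10 tested paternally expressed genes had 3 rises and 0 falls, and the 11 tested maternally expressed genes had 0 rises and 3 falls, where 9.33% of all tested genes rose and 5.09% fell. The median log2 difference was 0.31 over the paternally expressed genes and -0.15 over the maternally expressed genes. In the first group 7 values were above 0 and 3 below, and in the second 3 were above and 8 below. The groups were not uniform. Nnat, a paternally expressed gene, had the most negative difference of all 21 genes (-0.54 ± 0.17, SE), and Cd81 and Gnas, listed as maternally expressed, had positive ones (0.18 ± 0.09 and 0.17 ± 0.07, SE). The difference between both groups was not tested, since the genes were chosen with earlier results of these arrays known. The split was also not among the planned comparisons. With the spike-in scaling or without the intensity trend, no maternally expressed gene passed. With no filter on low signal, only Impact and Grb10 passed. With the brightest probe set taken irrespective of its type, Plagl1, a paternally expressed gene, rose as well. That rise came from a probe set of a type that may bind further transcripts. The other Plagl1 probe set stayed at 0.9 to 7.0. Of 4 probe sets shared by Snrpn, also paternally expressed, and Snurf, which the fit by gene leaves out, 1 fell (-0.54 ± 0.08, SE; limma, adjusted p = 0.0063).

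**Figure D2:**
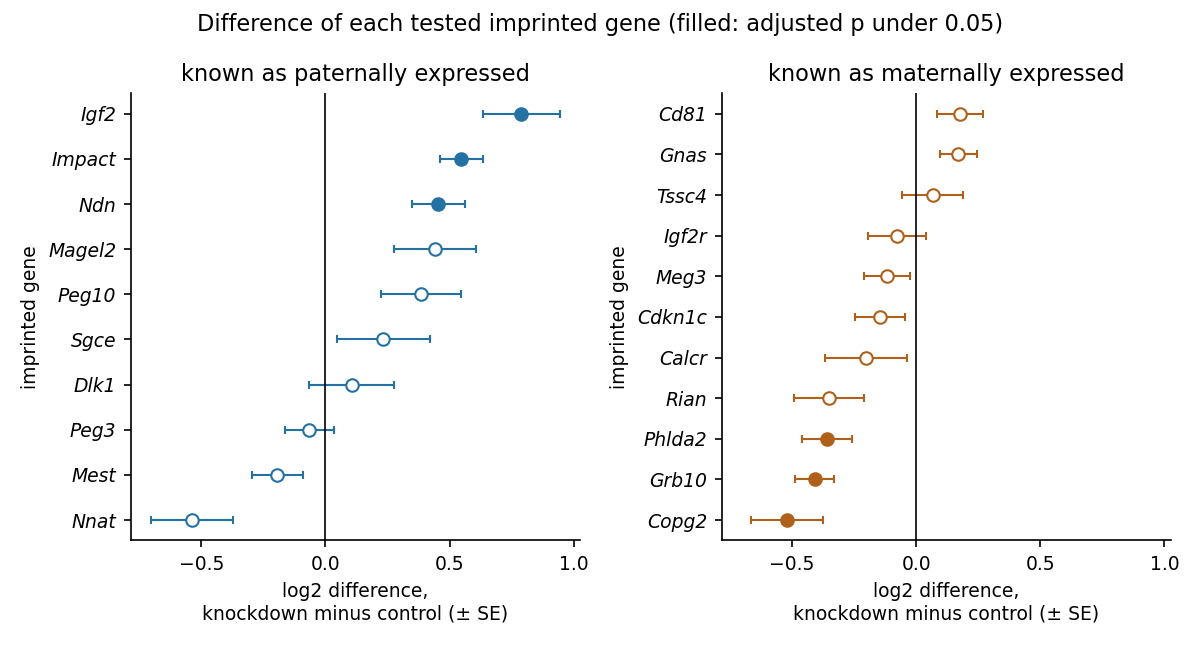
Log2 difference (knockdown minus control, bars ± SE, n = 2 arrays per group) of the 10 tested paternally expressed genes on the left and the 11 tested maternally expressed genes on the right. Filled points passed the test: Igf2, Impact and Ndn lie right of 0 on the left, and Phlda2, Grb10 and Copg2 lie left of 0 on the right.

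The promoters of the genes that had a probe set of their own past the test are shown for comparison, since these genes moved in both directions. Each sequence is the 250 bases before a start site in RefSeq (GRCm38.p6), printed 5′ to 3′ on the strand of the gene, and for a gene with several start sites the one with the most CpG dinucleotides. They are Igf2 at chr7:142658805-142659054 (minus strand), Ndn at chr7:62348027-62348276 (plus), Plagl1 at chr10:13090582-13090831 (plus), Grb10 at chr11:12037421-12037670 (minus), Meg3 at chr12:109540746-109540995 (plus), Phlda2 at chr7:143502525-143502774 (minus) and Copg2 at chr6:30896795-30897044 (minus). Impact has no entry in the table. Capitals mark TGCCGC, the hexamer bound by ZFP57, or its reverse complement GCGGCA.
Igf2: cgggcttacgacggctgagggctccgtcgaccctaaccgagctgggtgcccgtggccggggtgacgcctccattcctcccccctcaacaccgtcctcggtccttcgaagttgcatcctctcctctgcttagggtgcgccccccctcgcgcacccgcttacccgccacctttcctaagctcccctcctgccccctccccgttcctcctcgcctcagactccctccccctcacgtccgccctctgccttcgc
Ndn: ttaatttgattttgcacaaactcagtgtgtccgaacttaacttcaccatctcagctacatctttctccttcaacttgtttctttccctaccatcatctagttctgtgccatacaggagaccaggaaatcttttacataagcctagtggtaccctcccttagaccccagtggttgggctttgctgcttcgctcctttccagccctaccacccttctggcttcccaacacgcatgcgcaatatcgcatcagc
Plagl1: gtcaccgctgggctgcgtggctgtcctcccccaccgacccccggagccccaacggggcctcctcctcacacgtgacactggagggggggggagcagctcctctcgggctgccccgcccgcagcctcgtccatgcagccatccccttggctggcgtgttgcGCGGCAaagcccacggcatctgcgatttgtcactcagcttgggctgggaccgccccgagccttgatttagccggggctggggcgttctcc
Grb10: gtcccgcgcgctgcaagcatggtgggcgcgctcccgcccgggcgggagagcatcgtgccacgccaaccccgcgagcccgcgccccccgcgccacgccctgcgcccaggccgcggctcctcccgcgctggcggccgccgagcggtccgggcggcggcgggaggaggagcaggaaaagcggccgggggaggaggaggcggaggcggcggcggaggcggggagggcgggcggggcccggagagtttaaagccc
Meg3: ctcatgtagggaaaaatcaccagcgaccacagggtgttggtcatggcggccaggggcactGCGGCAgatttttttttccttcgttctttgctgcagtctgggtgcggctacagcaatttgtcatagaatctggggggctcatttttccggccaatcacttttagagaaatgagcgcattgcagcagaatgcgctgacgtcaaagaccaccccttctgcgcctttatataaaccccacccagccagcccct
Phlda2: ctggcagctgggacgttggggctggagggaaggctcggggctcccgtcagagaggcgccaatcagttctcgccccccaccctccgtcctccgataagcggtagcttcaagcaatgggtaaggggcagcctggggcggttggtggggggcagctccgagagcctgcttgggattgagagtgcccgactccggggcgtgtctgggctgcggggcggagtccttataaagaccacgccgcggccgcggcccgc
Copg2: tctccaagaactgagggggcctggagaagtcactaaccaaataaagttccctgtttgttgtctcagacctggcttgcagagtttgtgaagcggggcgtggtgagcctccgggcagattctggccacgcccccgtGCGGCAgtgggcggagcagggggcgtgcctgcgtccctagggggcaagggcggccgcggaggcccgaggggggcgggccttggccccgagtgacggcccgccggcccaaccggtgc
The hexamer stood in the promoters of Plagl1, Meg3 and Copg2 and not in those of Igf2, Ndn, Grb10 and Phlda2. It was thus found beside a rise of 1 probe set that may bind further transcripts, a fall of 1 probe set and a fall. The promoter of Grb10 held 40 CpG dinucleotides, that of Igf2 22, that of Phlda2 21, those of Plagl1 and Copg2 19 each, that of Meg3 10 and that of Ndn 5. The table held 44 promoters of 26 of the 33 genes, of which 9 (20.5%) held the hexamer, against 8.68% of all 32851 promoters. The 9 belonged to 8 genes, since 2 of them were Mest windows that start 3 bases apart and share their matches. Promoters with at least 10 CpG dinucleotides, the median of the 44, held it in 18.3% of cases over the whole table and in 9 of 24 among the imprinted genes. Both strands of the YY1 motif GCCATNTT were searched as well, with 0 matches in the 44 and 3.91% over the table. With no match of the second motif, no overlap of both arose. Matches are descriptions of these windows only, and the start sites used in these cells were not measured.

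Genes of growth factor signalling gave a rise of the ligand and a fall of an adaptor. Igf2 encodes insulin-like growth factor 2, a growth factor of the embryo and placenta. Its signals were 146.3 and 168.8 with the Brg1 shRNA against 69.6 and 97.3 with the control shRNA, so both knockdown arrays lay above both control arrays. That is a rise of 0.79 ± 0.16 on the log2 scale (SE), or 1.73-fold (limma, adjusted p = 0.01). A second Igf2 probe set had 2.9 to 8.4 on the 4 arrays and was below the filter. With the mean of both the difference was 0.36 (adjusted p = 0.104), and the call was also lost with no filter (adjusted p = 0.0599).

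Igf2r, the receptor that takes IGF2 to the lysosome and so removes it, had 205.8 and 190.1 against 192.7 and 228.0, with overlapping groups and a log2 difference of -0.08 ± 0.12 (SE; adjusted p = 0.698). Another Igf2r probe set had a difference of the other sign, 0.15 ± 0.12. Grb10 encodes an adaptor protein that restrains signalling from the insulin and IGF receptors. It had 1379.4 and 1299.2 with the Brg1 shRNA and 1860.8 and 1711.5 with the control shRNA, with every knockdown array lower. The fall was -0.41 ± 0.08 on the log2 scale (SE), or 1.33-fold (limma, adjusted p = 0.0088), and with the spike-in scaling it kept its sign at -0.08 but not its call (adjusted p = 0.768). All 3 Grb10 probe sets were lower. The second had 189.5 and 175.1 against 293.3 and 301.2, a log2 difference of -0.65 ± 0.11 (SE; adjusted p = 0.00944 in a separate fit of single probe sets, in which each is tested on its own), and the third, at 70.8 and 95.4 against 109.9 and 102.4, did not pass (-0.30 ± 0.15).

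Plagl1 encodes a zinc finger transcription factor known to regulate other imprinted genes. Its probe set without cross-hybridisation mark had 0.9 to 7.0 and was not tested. The other, of the type that may bind further transcripts (_x_at), had 337.7 and 358.5 with the Brg1 shRNA and 184.9 and 207.5 with the control shRNA, with no overlap. In the fit of single probe sets it rose by 0.77 ± 0.11 (SE; limma, adjusted p = 0.00498), and it passed under each of 3 other scalings and without each array in turn. Its identity as Plagl1 RNA rests on this probe set alone. The probe set shared by H19, a maternally expressed noncoding RNA next to Igf2, and Mir675 had 54.3 and 35.1 against 42.9 and 34.0, with overlap and a log2 difference of 0.14 ± 0.19 (SE; adjusted p = 0.686).

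Of other cell types that could carry Igf2 RNA, fibroblast markers were mixed: of 12 on the array 6 (Col1a1, Col3a1, Lum, Pdgfrb, Postn and S100a4) stayed below the filter level of 23.9 on all arrays. Among the 4 tested, Vim rose by 1.10 and Fn1 fell by 0.70 on the log2 scale. The summed signal of the fibroblast list was 2242.5 and 2380.3 with the Brg1 shRNA and 2246.3 and 2239.1 with the control shRNA. Most of it came from Vim, at 1152.6 and 1165.4 against 504.5 and 556.9, and Fn1, at 881.4 and 968.2 against 1544.4 and 1475.2. These 2 moved in opposite directions, so the sum does not show whether fibroblast RNA changed. Trophectoderm markers summed to 1448.6 and 1558.9 against 895.4 and 949.0, mostly from Krt8 and Krt18. Elf5, Gata3 and Tpbpa stayed below the filter level. Krt8, at 690.0 and 785.1 against 326.1 and 372.2, and Tfap2c, at 130.6 and 106.5 against 63.6 and 42.4, rose by 1.04 ± 0.10 and 0.93 ± 0.17 (SE; limma, adjusted p = 0.000376 and 0.00776), where 9.33% of all tested genes rose. Hand1, at 43.8 and 57.0 against 18.9 and 21.6, reached the filter only through the group in which it is high, so only its signals are given. Primitive endoderm markers summed to 1225.2 and 1426.8 against 1045.4 and 1222.7, mostly from Sparc and Col4a1. Afp and Sox7 stayed below the filter level throughout. Sparc was higher (0.43, adjusted p = 0.047), but did not pass once knockdown replicate 2 (0.205 in log2, adjusted p = 0.344) or control replicate 1 (0.27, adjusted p = 0.179) was left out. Lama1 was lower (-0.55, adjusted p = 0.0236), but missed the threshold once knockdown replicate 1 (adjusted p = 0.057) or control replicate 2 (0.1) was left out and with the spike-in scaling (-0.28, adjusted p = 0.346). Foxa2, at 35.7 and 51.9 against 9.9 and 16.3, also reached the filter only through the group in which it is high. Their part in the imprinted gene differences was not tested, and in bulk RNA fewer cells of a type and less RNA per cell cannot be told apart.

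In the cluster of Cdkn1c and Phlda2, which lies next to Igf2 and H19, 1 of the 4 genes tested from the list of 33 changed. Phlda2, a small protein with a pleckstrin homology domain that limits growth of the placenta, had 665.5 and 778.9 with the Brg1 shRNA and 979.9 and 881.3 with the control shRNA. Both knockdown arrays lay below both controls, and it fell by 0.36 ± 0.10 in log2 (SE), or 1.28-fold (limma, adjusted p = 0.0401). Leaving out knockdown replicate 1 (-0.25, adjusted p = 0.144) or control replicate 1 (-0.28, adjusted p = 0.136) ended the call, and with the spike-in scaling the difference was -0.04. In the fit of single probe sets it missed the threshold (adjusted p = 0.064).

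Cdkn1c, an inhibitor of cyclin-dependent kinases also called p57, had 396.6 and 409.0 against 415.9 and 482.2, a log2 difference of -0.15 ± 0.10 (SE; adjusted p = 0.355). Cd81, a tetraspanin of the cell surface, had 1294.3 and 1458.4 against 1298.6 and 1133.9, with overlap (0.18 ± 0.09, SE; adjusted p = 0.227). Tssc4 had 178.5 and 179.7 against 154.5 and 186.9, also with overlap (0.07 ± 0.12, SE; adjusted p = 0.744). The potassium channel gene Kcnq1 and the lipid-binding gene Osbpl5 stayed between 1.9 and 18.1 and were not tested. None of these passed, and signs differed among them.

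The Prader-Willi region gave a rise of Ndn. Ndn encodes necdin, a MAGE family protein known for restraining cell division in neurons. Its signals were 231.1 and 223.2 with the Brg1 shRNA and 162.3 and 158.5 with the control shRNA, with no overlap. That is a rise of 0.45 ± 0.11 on the log2 scale (SE), or 1.37-fold (limma, adjusted p = 0.0224). Of its 8 probe sets 5 reached the filter, all higher in the knockdown, by 0.32 to 0.46, and 2 of the 5 passed in the fit of single probe sets. Most of the 5, and 1 of the 2 that passed, were of the type that may bind further transcripts (_x_at). The call missed the threshold without knockdown replicate 1 (adjusted p = 0.0529), knockdown replicate 2 (0.0538) or control replicate 2 (0.0636), although the difference stayed between 0.43 and 0.48. Averaged over its 8 probe sets it was 0.32 (adjusted p = 0.0881), and with no filter the adjusted p was 0.057. Magel2, a neighbour of the same family that acts with a ubiquitin ligase, had 67.7 and 93.6 against 57.9 and 49.4. Both knockdown arrays were above both controls, but the difference of 0.44 ± 0.17 did not pass (SE; adjusted p = 0.104) except without knockdown replicate 1 (0.63, adjusted p = 0.0271) or with the spike-in scaling (0.70, adjusted p = 0.0158).

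Snrpn encodes a core protein of the spliceosome and shares a transcript with Snurf, so 4 probe sets were annotated to both and entered only the fit of single probe sets. They differed from each other. One had 1012.5 and 957.9 with the Brg1 shRNA and 1488.7 and 1397.1 with the control shRNA, with no overlap, and the fall was -0.54 ± 0.08 in log2 (SE; limma, adjusted p = 0.0063). Another, at 1261.9 and 1326.1 against 1609.9 and 1536.2, was lower by less (-0.28 ± 0.08, adjusted p = 0.0579). The remaining 2 overlapped between the groups, at 2275.2 and 2714.8 against 2947.4 and 2570.5 (-0.15 ± 0.10, SE), and at 2030.1 and 2396.7 against 2296.3 and 2034.0 (0.03 ± 0.10, SE). The probe set annotated to Snrpn alone had 1.1 to 9.5 and was not tested. The fall of the first kept its sign with the spike-in scaling (-0.22) but not its call (adjusted p = 0.442).

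Across all 60 probe sets of the imprinted genes, 41 reached the filter, of which 9 passed in the fit of single probe sets, 5 higher and 4 lower. Of all 13576 probe sets tested there, 9.13% passed, 5.76% higher and 3.37% lower. The higher ones were the probe sets of Igf2, Impact and Plagl1 and 2 of Ndn. That of Plagl1 and 1 of the 2 of Ndn were of the _x_at type, which may bind further transcripts. The lower ones were 2 of Grb10, 1 of Meg3 and 1 of Snurf and Snrpn.

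**Figure D3:**
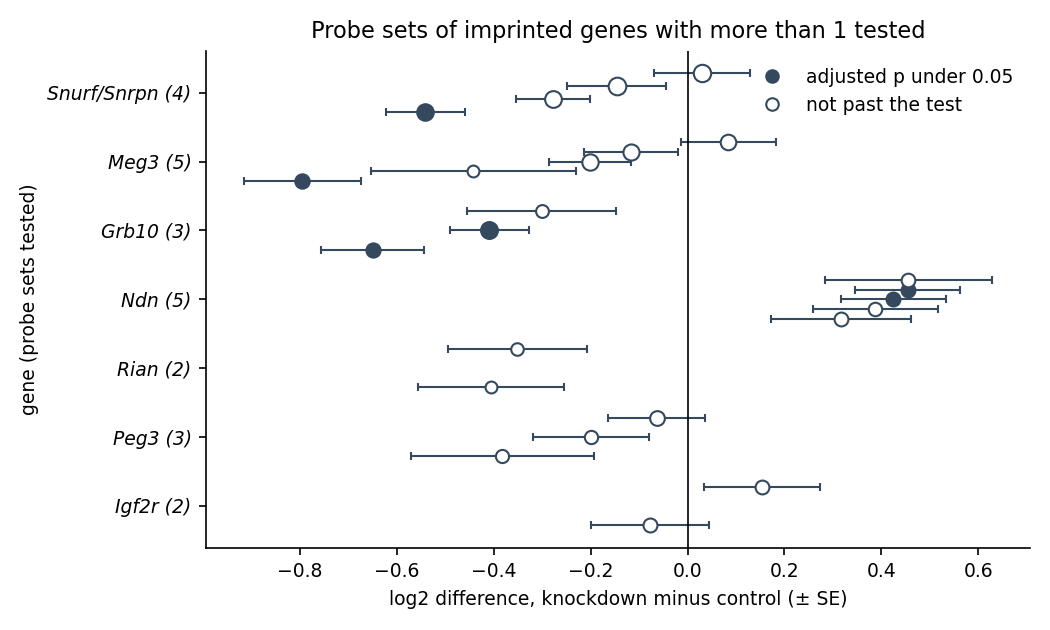
Log2 difference (knockdown minus control, bars ± SE) of every tested probe set of the imprinted genes that had more than 1, with larger points for higher mean signal and filled points for an adjusted p under 0.05. The 5 Ndn and 3 Grb10 probe sets each lie on one side of 0, whereas those of Meg3 run from -0.80 to 0.08 and those of Snurf and Snrpn from -0.54 to 0.03.

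At the Dlk1 and Meg3 cluster, named for a paternally expressed membrane protein of the Notch ligand type and a maternally expressed long noncoding RNA, no gene passed in the fit by gene. The Meg3 probe set used there had 900.1 and 835.7 with the Brg1 shRNA and 874.2 and 1015.7 with the control shRNA, with overlap (-0.12 ± 0.09, SE; adjusted p = 0.426). A further Meg3 probe set had 195.3 and 188.9 against 314.3 and 384.8. Both knockdown arrays lay below both controls, and the fall was -0.80 ± 0.12 in log2 (SE; limma, adjusted p = 0.00688 in the fit of single probe sets), while the spike-in scaling gave -0.49 (adjusted p = 0.107). The other 3 gave -0.44 ± 0.21, -0.20 ± 0.08 and 0.08 ± 0.10 (SE), and none passed. Which Meg3 transcripts each probe set binds is not given in the sources used here.

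Rian, a noncoding RNA of the same cluster that carries small nucleolar RNAs, had 65.4 and 66.0 against 98.0 and 81.3 and did not overlap between the groups (-0.35 ± 0.14, SE; adjusted p = 0.124). Its second tested probe set, at 39.3 and 38.3 against 54.5 and 61.5, was lower as well (-0.41 ± 0.15, SE; adjusted p = 0.123 in the fit of single probe sets). Dlk1 had 66.7 and 93.9 against 64.2 and 81.3, with overlap (0.11 ± 0.17, SE; adjusted p = 0.711). Values of Dlk1 changed sign without knockdown replicate 2 (-0.09) or control replicate 1 (-0.03).

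Around Mest, the neighbour and not Mest itself passed the test. Copg2, a coat protein of the vesicles that return from the Golgi, lies beside Mest. It had 94.6 and 70.6 with the Brg1 shRNA and 124.1 and 128.0 with the control shRNA, with no overlap. The fall was -0.52 ± 0.15 on the log2 scale (SE), or 1.43-fold (limma, adjusted p = 0.0425). The call ended when knockdown replicate 2 (-0.35, adjusted p = 0.206), control replicate 1 (-0.54, adjusted p = 0.0887) or control replicate 2 (-0.50, adjusted p = 0.113) was left out. The spike-in scaling ended it too (-0.25, adjusted p = 0.399), as did no filter (limma, adjusted p = 0.126) and no intensity trend (0.0615). In the fit of single probe sets Copg2 missed the threshold (limma, adjusted p = 0.0642). Mest, an enzyme of the alpha/beta hydrolase fold, had 584.4 and 505.7 against 589.4 and 662.6, also lower with no overlap. Its log2 difference was -0.19 ± 0.10 (SE; adjusted p = 0.226), and 0.12 with the spike-in scaling.

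The cluster of Peg10 and Sgce gave no call. Peg10, a gene derived from a retrotransposon and needed in the placenta, had 105.8 and 96.9 against 86.8 and 60.7. Its groups did not overlap, and the difference of 0.38 ± 0.16 did not pass (SE; adjusted p = 0.133) except with the spike-in scaling (0.65, adjusted p = 0.0236). Sgce, a sarcoglycan of the muscle membrane that shares its promoter region with Peg10, had 56.1 and 77.7 against 64.0 and 44.0, with overlap (0.23 ± 0.19, SE; adjusted p = 0.423). The calcitonin receptor gene Calcr had 31.2 and 25.3 against 35.7 and 35.0 (-0.20 ± 0.17, SE; adjusted p = 0.444), and Asb4 was below the filter. At the Peg3 cluster, Peg3, a zinc finger protein, had 357.0 and 328.6 against 350.0 and 368.2, with overlap (-0.06 ± 0.10, SE; adjusted p = 0.693). Its other probe sets gave -0.20 ± 0.12 and -0.38 ± 0.19 (SE), and its neighbours Usp29 and Zim1 stayed at 0.9 to 11.9.

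In the fit by gene, Impact had the smallest p of the imprinted genes. It encodes a protein that restrains activation of the kinase GCN2, which slows translation when amino acids are short. Signals were 767.3 and 823.4 with the Brg1 shRNA and 531.5 and 543.5 with the control shRNA, with every knockdown array higher. The rise was 0.55 ± 0.08 on the log2 scale (SE), or 1.46-fold (limma, adjusted p = 0.00352), and Impact alone of the 6 passed in every alternative tried.

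Nnat encodes neuronatin, a small membrane protein of the endoplasmic reticulum. It had 38.1 and 54.6 with the Brg1 shRNA and 71.5 and 79.6 with the control shRNA, and the groups did not overlap. The difference of -0.54 ± 0.17 just missed the threshold (SE; limma, adjusted p = 0.0577) and passed with median centring (-0.59, adjusted p = 0.0312), with quantile normalization (-0.59, adjusted p = 0.0411), with the replicate number as a block (adjusted p = 0.0393) and without knockdown replicate 2 (-0.72, adjusted p = 0.0227). It moved further from the threshold without knockdown replicate 1 (-0.36, adjusted p = 0.186), without control replicate 1 (-0.60, 0.106) or 2 (-0.475, 0.205) and with the spike-in scaling (-0.285, adjusted p = 0.334). Gnas, which encodes the stimulatory G protein alpha subunit and several imprinted transcripts, had 1681.6 and 1629.5 against 1423.3 and 1517.0 without overlap (0.17 ± 0.07, SE; adjusted p = 0.149). Its other 3 probe sets stayed between 1.4 and 17.9. The matrix proteoglycan gene Dcn, a marker of fibroblasts as well, had 2.1 to 13.9, and Nap1l5 had 6.6 to 12.1.

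**Figure D4:**
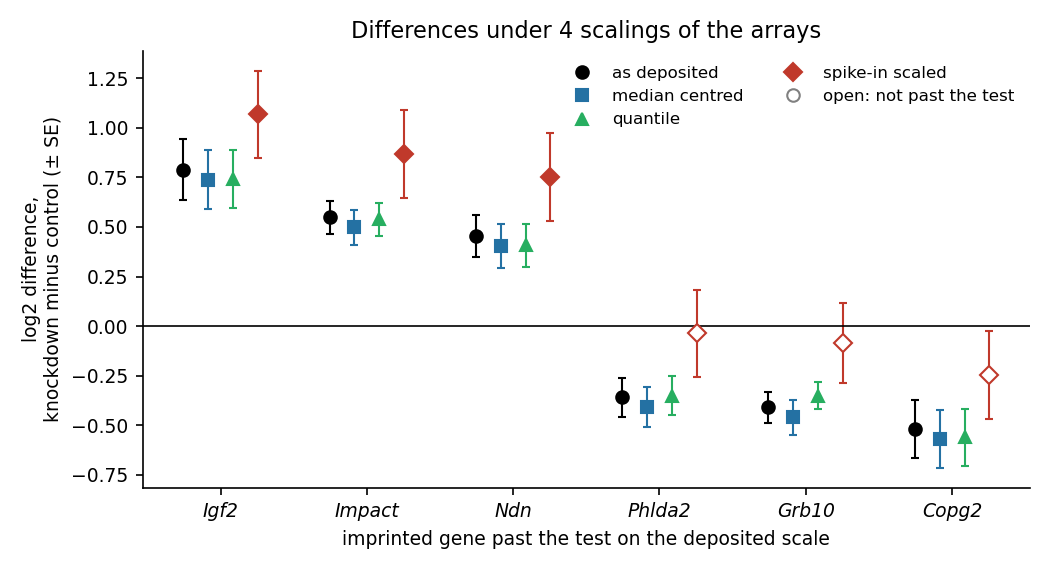
Log2 difference (knockdown minus control, bars ± SE) of the 6 imprinted genes past the test, on the deposited scale (circles), after median centring (squares), after quantile normalization (triangles) and after scaling to the spike-ins (diamonds), with open symbols where the adjusted p was 0.05 or more. No gene changed sign, and Phlda2, Grb10 and Copg2 lost their calls with the spike-in scaling, at -0.04, -0.08 and -0.25. The bars were wider with that scaling, for Grb10 an SE of 0.202 against 0.078 on the deposited scale.

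Genes known to set or keep imprints moved in both directions. Of a list of 32 such genes 24 were tested, of which 3 rose, 3 fell and 18 did not pass, beside 9.33% and 5.09% of all tested genes, with a median log2 difference of 0.01. The methyltransferases that lay down new marks fell: Dnmt3a had 584.8 and 678.9 with the Brg1 shRNA and 1088.1 and 1034.7 with the control shRNA (-0.73 ± 0.09, SE; limma, adjusted p = 0.00124), and Dnmt3b had 1532.4 and 1414.5 against 2281.6 and 2283.9 (-0.63 ± 0.07, SE; adjusted p = 0.000781). With the mean of its probe sets Dnmt3a fell by 0.39 (adjusted p = 0.0243). Both genes stayed below 0 with the spike-in scaling but did not pass (-0.41 and -0.30). Dnmt3l, their cofactor without enzyme activity, had 1023.3 and 1078.8 against 816.7 and 877.1 and rose by 0.31 ± 0.08 (SE; adjusted p = 0.0359).

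Zfp57, which binds methylated imprinted control regions, had 294.6 and 210.6 with the Brg1 shRNA and 145.8 and 179.3 with the control shRNA, with no overlap. The rise was 0.57 ± 0.16 in log2 (SE; limma, adjusted p = 0.0416). Without knockdown replicate 1 the difference was 0.34, and without control replicate 1 it was 0.44, and neither passed. The call was also lost with quantile normalization (0.525, adjusted p = 0.0521), without the intensity trend (adjusted p = 0.0912) and with no filter (adjusted p = 0.129). Its partner Trim28 had 3544.9 and 3527.3 against 3298.2 and 3284.9, higher with no overlap, but did not pass (0.10 ± 0.06, SE; adjusted p = 0.292). The histone methyltransferase gene Setdb1, at 584.3 and 686.2 against 511.6 and 472.0, rose by 0.35 ± 0.10 (SE; adjusted p = 0.0462). With the mean of its probe sets Setdb1 did not pass (0.31, adjusted p = 0.0751). Nor did it pass with quantile normalization (0.33, limma, adjusted p = 0.0596), with no filter (0.11) or without the intensity trend (0.111). Hells, a remodelling protein needed for DNA methylation, had 889.3 and 783.8 against 1093.4 and 1144.2 and fell by 0.41 ± 0.09 (SE; adjusted p = 0.0141), but did not pass with the spike-in scaling (-0.09, adjusted p = 0.764). The calls of Dnmt3l and Setdb1 were lost without knockdown replicate 2 (adjusted p = 0.158 and 0.257) and with median centring (0.064 and 0.0684), that of Dnmt3l also without control replicate 1 (0.136) and that of Setdb1 also without control replicate 2 (0.134), and that of Hells without knockdown replicate 2 (0.0712). Dnmt1, Uhrf1 and Ctcf did not pass, with log2 differences of 0.22 ± 0.07, 0.05 ± 0.09 and 0.03 ± 0.09 (SE; adjusted p = 0.0775, 0.727 and 0.824).

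Imprinted genes outside the 33 gave a similar mixture. Of a list of 57, 18 were tested, of which 2 rose, 2 fell and 14 did not pass, beside the 9.33% and 5.09% of all tested genes. Sfmbt2, a Polycomb-related gene, had 163.3 and 171.7 with the Brg1 shRNA and 78.4 and 68.7 with the control shRNA, a rise of 1.00 ± 0.13 (SE), or 2.01-fold (limma, adjusted p = 0.00117). Xist, the noncoding RNA of X inactivation that is imprinted in extraembryonic tissues, had 291.6 and 317.0 against 206.7 and 209.6 and rose by 0.51 ± 0.10 (SE; adjusted p = 0.0118). Without knockdown replicate 2 it just missed the threshold (0.45, adjusted p = 0.0552), and with the mean of its probe sets the difference was 0.22 (adjusted p = 0.325). Ddc, an enzyme of dopamine and serotonin synthesis, had 78.7 and 70.7 against 148.0 and 136.4 and fell by 0.78 ± 0.13 (SE; adjusted p = 0.00482), or by 0.50 without a call with the spike-in scaling (adjusted p = 0.0873). Cars, the cysteinyl-tRNA synthetase, had 322.4 and 351.7 against 427.0 and 436.5. It fell by 0.34 ± 0.10 (SE; limma, adjusted p = 0.0416) but did not pass with any single array left out (-0.28 to -0.40). Nor did it pass with the mean of its probe sets (-0.22, adjusted p = 0.255) or with the spike-in scaling (-0.03, adjusted p = 0.937).

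**Figure D5:**
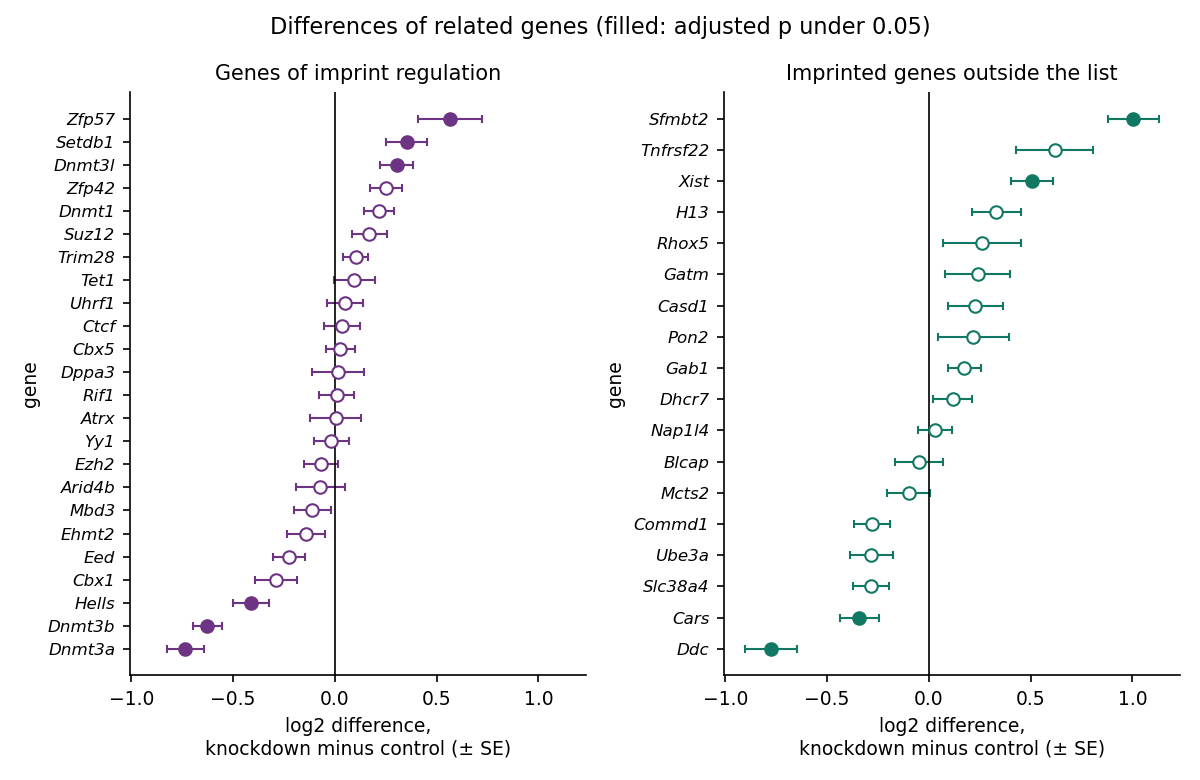
Log2 difference (knockdown minus control, bars ± SE, n = 2 arrays per group) of the 24 tested genes of imprint regulation on the left and the 18 tested imprinted genes outside the list of 33 on the right. Filled points passed the test: Zfp57, Setdb1 and Dnmt3l to the right of 0 and Hells, Dnmt3b and Dnmt3a to the left, and Sfmbt2 and Xist to the right and Cars and Ddc to the left.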

How the data were processed

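The deposited values are 1 signal intensity per probe set and array, made by the authors with the Affymetrix software GCOS, per the submitters' processing notes. The sources used here give no version, algorithm or scaling target for it. Depth does not apply to arrays, whose number (2 per group) limits the precision. There were 64 control probe sets among 22690. Of the others, 20380 had 1 gene, 691 several and 1555 none. Symbols were updated by Entrez ID through RefSeq (GRCm38.p6), which held 20351 of the 20380. Signals were analysed as log2(signal + 20), with no further normalization, so folds of dim genes are understated. A gene with several probe sets was represented by the brightest on average, and those ending in _x_at only where there was no other. Genes at or above the 40th percentile of probe sets (23.9 signal units) were tested with limma 3.58.1 in R 4.3.3 (lmFit, eBayes with an intensity trend, two-sided), with Benjamini-Hochberg adjustment over all tested genes and a threshold of 0.05. A second limma fit tested every probe set by itself, and gave the p of single further probe sets. The fit was tested on simulated data. The members, lists and rules were chosen with earlier results of these data known. Named are all 33 genes, those on the other lists past the test (up to 6 each, by smallest p), and both shRNA targets. Of the markers, those past the test or below the filter level on all arrays are named. Some others are named as examples of a list or for their share of a sum. Dnmt1, Uhrf1, Ctcf and Trim28 were named after their values were seen. Alternatives changed the pseudocount, filter, scaling, variance model, probe set choice and replicate block, or dropped 1 array.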

Additional observations from a re-analysis of the deposited data

How the results depend on the processing

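Of 3 rises and 3 falls on the deposited scale, there were 1 and 1 with no filter on low signal (433 of all genes past the test, against 1127), 5 and 0 with the spike-in scaling, and 3 and 0 without the intensity trend. With the mean of all probe sets there were 1 and 4. The counts were 2 to 3 rises and 1 to 3 falls without each array in turn, with 649 (without knockdown replicate 2) to 1265 (without knockdown replicate 1) of all genes past the test. Without control replicate 1 there was 1 fall, that of Grb10, among 771 calls. Impact passed in all alternatives. Scaling moved the share of rises among all calls from 64.7% to 51.0% with median centring and 97.9% with the spike-ins. The signs of genes not past the test turned with the spike-in scaling for Igf2r (0.22), Cdkn1c (0.17), Peg3 (0.25), Mest (0.12) and Meg3 (0.205), with the mean of all probe sets for Igf2r (0.038) and Gnas (-0.02), and with 1 array left out for Igf2r (-0.187 to 0.034), Dlk1 (-0.091 to 0.303) and Tssc4 (-0.055 to 0.190). The causes were not tested. Same-numbered arrays did not deviate together (correlation -0.136). With the replicate block there were 3 rises and 4 falls, and 1187 of all genes passed; with the crossed replicate block, added after seeing the data, 3 and 4, and 1478. With _x_at probe sets included, also added later, there were 4 and 3. Low signal limits the genes below the filter, except Plagl1 and Snrpn, which had brighter probe sets that the rule for choosing 1 per gene left out. The brighter Plagl1 probe set may bind further transcripts, so for Plagl1 the limit may hold as well.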
